A study of Mus musculus with 5 samples.

Results

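Interferon-stimulated genes, interferon regulatory factors (IRFs) and the interferon receptor chains were followed in the mouse mammary gland at the start of lactation. The set was a list of 44 gene symbols, and 43 of them were rows of the deposited table of 22609 genes: 25 targets of type I interferon, 7 GTPases induced by interferon-gamma, 7 IRF factors and 4 receptor chains. The listed symbol that was not a row of the table was Ifi27, and a row under its synonym Ifi27l1 is described with the other interferon-induced genes. RNA sequencing covered 5 libraries of mammary tissue from outbred mice, collected less than 12 hours after the mice had given birth and without the lymph nodes. Of these, 2 libraries carried the genotype wild type and 3 the genotype Nfib-null (KO). NFIB, the product of Nfib, is a transcription factor of the nuclear factor I family. The labels do not give the construction of the null allele, whether it acted in every cell, or whether animals were pooled.

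The deposited table held 1 RPKM value per gene for each genotype (reads per kilobase of gene, scaled to mapped reads), so each comparison below is between 2 numbers with no replicate spread, no test and no p-value. The column Nfib-WT carries the name of the wild-type libraries. The column NfibFF-WC is named in no label and was taken as the Nfib-null group by elimination. The endings of its decimals, described with the processing of the data, point the same way. In NfibFF-WC 84.4% of the entries examined ended as means of 3 values do, and in Nfib-WT 0% of 67 did. Of the genotypes, Nfib-null alone had 3 libraries. Nfib itself stood at 55.3 RPKM in NfibFF-WC against 33.7 RPKM in Nfib-WT, so the targeted gene was not at a lower level in the presumed null column. Below, values are in the order Nfib-null against wild type, and every direction would turn if the columns had been assigned wrongly. Low values implied that 1 RPKM rests on about 82.9 reads per kilobase in the Nfib-null column and 32.5 in the wild-type column. Differences are the log2(scaled RPKM + 1) of the Nfib-null column minus that of the wild type. Median-ratio scaling had been applied to the columns and took their median log2 ratio from 0.41 to 0. A gene was called higher or lower from 2-fold, a log2 difference of 1. Of the 43 genes, 42 reached the minimum mean of 1 RPKM over the 5 libraries and entered the comparison with 12469 other genes.

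Type I interferons signal through the receptor chains IFNAR1 and IFNAR2 to the kinases JAK1 and TYK2, which activate STAT proteins. These join IRF9 in the complex ISGF3, which binds the interferon-stimulated response element in promoters of antiviral genes. Interferon-gamma signals through IFNGR1 and IFNGR2, JAK1 and JAK2 to STAT pairs that bind the gamma-activated site, and it induces GTPases that attack the vacuoles of intracellular microbes. Epithelium, macrophages, fibroblasts and lymphocytes can all carry these genes.

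The response element is the sequence that the type I targets and the GTPases are known to share, so promoter windows were searched for its core on both strands. The core was taken as 2 copies of GAAA with 2 bases of any kind between them. RefSeq windows of 300 bases on GRCm38.p6, reaching from 250 bases before the start to 50 after, were found for 35 of the 43 genes. The core was present in 17 of the 35 genes (48.6%) and in 3.99% of the 27025 genes of the promoter table. It was found in 11 of 19 type I targets, in 5 of 5 GTPases, in 1 of 7 IRF factors and in 0 of 4 receptor chains. The gamma-activated site, TTCNNNGAA, which reads alike on both strands, was found in 13 of the 35 genes (37.1%) and in 9.55% of all genes of the table. The cores of the 6 genes of highest mean level that hold one follow as 30 bases on the strand of the gene, credited to RefSeq, with the bases of each core or overlapping pair of cores in capitals.
Ifitm2, chr7:140955988-140956017, minus strand: ccaccaacagGAAAAGGAAAttgctagaga
Ifitm3, chr7:141010714-141010743, minus strand: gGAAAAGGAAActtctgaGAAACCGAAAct
Bst2, chr8:71537580-71537609, minus strand: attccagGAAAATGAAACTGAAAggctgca
Gbp2, chr3:142620594-142620623, plus strand: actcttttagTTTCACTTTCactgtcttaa
Irf2, chr8:46739495-46739524, plus strand: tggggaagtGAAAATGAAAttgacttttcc
Irgm1, chr11:48871428-48871457, minus strand: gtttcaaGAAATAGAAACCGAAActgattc
The core of Gbp2 lay on the opposite strand, and both cores of Ifitm3 lay after the annotated start. Of 26 cores in the 17 genes, 15 began within 100 bases before the start, 4 lay after it, and that of Irf2 began 241 bases before it. Isg15 held 3 cores and 7 other genes held 2 each. A match is a description of the letters, and neither motif was tested for binding.

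**Figure D1:**
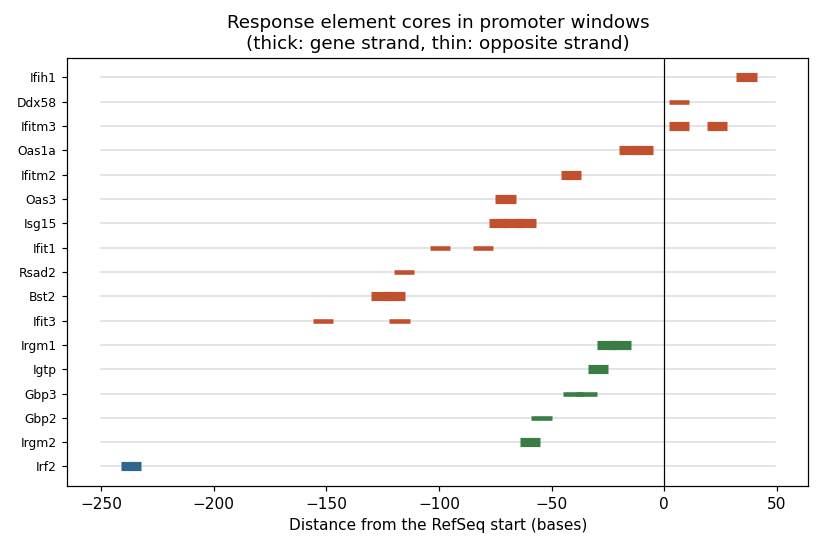
Positions of the response element core in the promoter windows of the 17 genes that hold it, as distance in bases from the RefSeq start (0, vertical line), with type I targets in orange, GTPases in green and Irf2 in blue. Most cores lie within 100 bases before the start, the cores of Ifih1, Ddx58 and Ifitm3 lie after it, and that of Irf2 lies farthest upstream.

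Across the whole set, interferon genes were modestly higher in the Nfib-null column than genes in general, and few passed 2-fold. After median-ratio scaling 33 of 42 genes were above 0, where 50% of all genes tested were, and the median was 0.46 against 0.00 for all genes. The higher calls were Ifi27l2a, Oasl2 and Gbp2, which is 3 of 42 genes beside 6.95% of all genes tested. The single lower call was Isg20, beside 5.97% of all genes tested. After median-ratio scaling and at 2-fold, the counts of calls thus lay near or below the background. Most members differed from the median gene by a small amount in the same direction. With values as deposited, 12 of 42 genes were higher, a larger share than the 14.4% of all genes. There 1 gene was lower, beside 2.95% of all genes, and the median was 0.84 against 0.35 for all genes.

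The difference between the list and all genes kept its sign under each scaling, which was largely fixed in advance. Apart from quantile normalization, each scaling divides a whole column by a single number. The difference could then move through the pseudocount alone. The median of the list lay above the median of all genes by 0.46 after median-ratio scaling, 0.44 after quantile normalization, 0.47 with equal sums, 0.49 as deposited, 0.49 when the columns were scaled to luminal epithelial genes and 0.51 when they were scaled to macrophage genes. With a pseudocount of 5, which shrinks the differences of low genes, it was 0.26. Against luminal genes the median of the list itself was −0.02, and against macrophage genes it was −0.54. These scalings shift all genes alike, and the medians of all genes were then −0.51 and −1.05. The luminal list itself ranged from −1.56 (Elf5) to 2.16 (Cldn4) after median-ratio scaling, with a median of 0.60.

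**Figure D2:**
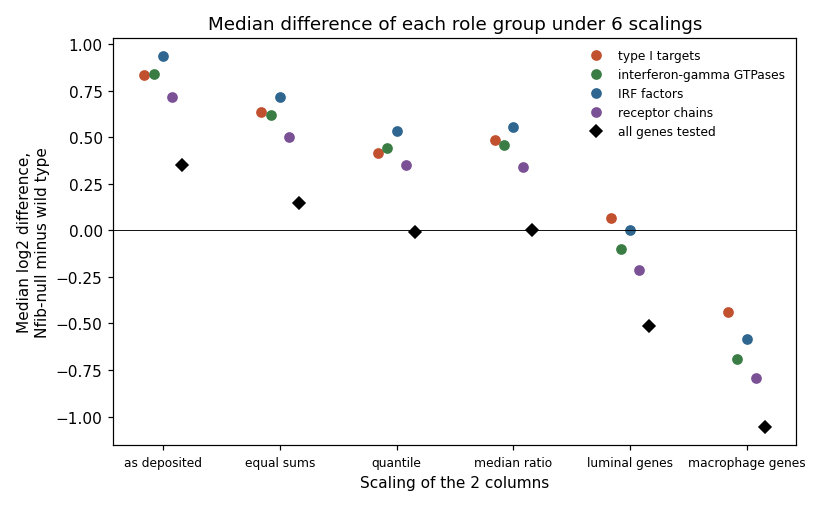
Median log2 difference (Nfib-null minus wild type) of each role group and of all genes tested (diamonds), for 6 ways of setting the columns to a common scale. All 4 groups lie above the diamond under each scaling, and all 4 lie below 0 only when the columns are scaled to macrophage genes. Apart from quantile normalization, the scalings move groups and diamond together by construction.

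The receptor chains were transcribed in both columns, and the chain of highest level was the one that differed least as deposited. Ifngr1, the ligand-binding chain of the interferon-gamma receptor, stood at 65.3 RPKM (Nfib-null column) against 62.1 RPKM (wild-type column), a difference of −0.33 after scaling. Its partner Ifngr2 stood at 29.4 against 14.0 RPKM (0.62). The excess of Ifngr1 over Ifngr2 in RPKM was thus smaller in the Nfib-null column. Ifnar2 stood at 25.2 against 13.6 RPKM (0.45) and Ifnar1 at 10.8 against 6.84 RPKM (0.22). After median-ratio scaling the 4 chains had a median of 0.34. Of the 4 chains 0 passed 2-fold, beside 6.95% of all genes higher and 5.97% lower. As deposited Ifngr2 was 2-fold higher (1.01), as were 14.4% of all genes.

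Transcripts of the interferons themselves were listed at or near 0 in both columns. Of 19 interferon genes in the table, 15 were listed at 0 in the Nfib-null column and 16 in the wild-type column, Ifnb1 and the genes for most alpha interferons among them. Ifng, the gene for interferon-gamma, stood at 0.0390 against 0.0467 RPKM. The highest was Ifne, interferon epsilon, an interferon of epithelia, at 1.03 against 0.824 RPKM, and no ligand reached the minimum.

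Jak1, Tyk2, Jak2 and Stat2, which the receptors use, differed little after median-ratio scaling. Jak1 stood at 48.1 RPKM (Nfib-null column) against 35.9 RPKM (wild-type column) (0.01), Tyk2 at 12.1 against 8.59 (0.08) and Jak2 at 15.5 against 9.58 (0.26). Stat2 stood at 17.3 against 15.5 RPKM (−0.24). Among the 12 genes for kinases, STATs and brakes, 1 was higher and 0 were lower, beside 6.95% and 5.97% of all genes, with a median of 0.17. The higher one was Socs3, a feedback inhibitor of cytokine signalling that acts mainly on receptors of the gp130 family, at 14.96 against 3.95 RPKM (1.33). Stat3, of the same list, stood at 104 against 40.1 RPKM (0.95), just within 2-fold. As deposited 2 of the 12 genes were higher, beside 14.4% of all genes.

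The 7 IRF factors had a median of 0.55, which turned to −0.58 with scaling to macrophage genes, where that of all genes was −1.05. After median-ratio scaling 0 of the 7 factors passed 2-fold, beside 6.95% of all genes higher and 5.97% lower. Irf3, the constitutive factor that first induces interferon beta, stood at 30.6 against 27.9 RPKM (−0.27), and Irf9, the DNA-binding subunit of ISGF3, at 27.1 against 23.9 RPKM (−0.22). Irf7, which amplifies the type I response, stood at 26.2 RPKM (Nfib-null column) against 12.5 RPKM (wild-type column) (0.62), and Irf1, an early target of interferon-gamma, at 17.7 against 8.79 RPKM (0.55).

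Irf2, best known as an antagonist of Irf1, had the largest difference of the 7 after median-ratio scaling, at 23.4 against 10.1 RPKM (0.75). Irf5, a factor of macrophages and B cells downstream of Toll-like receptors, stood at 6.45 against 2.79 RPKM (0.64), and Irf8, which macrophages and dendritic cells need to develop, at 5.34 against 3.36 RPKM (0.21). Irf7 and Irf2 were 2-fold higher with values as deposited (1.01 and 1.13), as were 14.4% of all genes. Of the factors outside the list, Irf4, which lymphocytes, plasma cells and some macrophages use, stood at 8.22 against 1.25 RPKM (1.73). Irf4 was the single gene of 4 in that list past 2-fold, beside 6.95% of all genes higher and 5.97% lower.

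Several lists of cell type markers differed between the columns beside these genes. The counts of calls stand beside 6.95% of all genes higher and 5.97% lower. Of 17 macrophage markers 11 were higher and 1, Marco, was lower, with a median of 1.11. Their summed level as deposited was 1618 RPKM (Nfib-null column) against 382 RPKM (wild-type column). Cd14 alone held 639 against 74.2 RPKM of these sums and had the largest difference of the 17 (2.68). None of the 17 was at 0. Of 7 fibroblast markers 7 were higher (median 1.54), and of 8 adipocyte markers 7 were higher and 0 lower (median 1.91). Irf5 and Irf8, both within 2-fold, lay below the macrophage marker median, and with scaling to macrophage genes they stood at −0.35 and −0.78. The median of all genes was then −1.05. Of 5 B and plasma cell markers tested 4 were lower and 1, Igj, was higher (109 against 36.3 RPKM), with a median of −1.19. Of 8 T and NK cell markers tested 2 were lower and 0 higher, 7 were below 0, and the median was −0.81. Of 17 luminal markers 4 were higher and 1 lower (median 0.60). Of 7 endothelial and 7 basal and myoepithelial markers 0 passed 2-fold (medians −0.04 and 0.31). Of 5 conventional dendritic cell markers tested 1 was lower and 0 higher. Of 3 plasmacytoid dendritic cell and 3 neutrophil markers tested 0 passed 2-fold. In whole tissue, a change in the number of cells of a type and a change in RNA per cell cannot be told apart, and the part of these cell types in the interferon genes was not tested.

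The interferon-gamma GTPases were mostly higher, with 6 of 7 above 0 and a median of 0.46. This median became −0.10 against luminal genes and −0.69 against macrophage genes, where the medians of all genes were −0.51 and −1.05. The guanylate-binding proteins coat pathogen vacuoles and help to break them. Gbp2 stood at 30.5 RPKM (Nfib-null column) against 10.5 RPKM (wild-type column) (1.07), the largest difference of the 7. Its difference was −0.09 against macrophage genes, a scaling that lowers every gene, and with a pseudocount of 5 it was 0.88. Gbp3 stood at 19.2 against 10.3 RPKM (0.46), and Gbp6 at 2.95 against 1.19 RPKM (0.58). The table also listed Gbp7 at 10.3 against 7.71 RPKM (0.01), Gbp5 at 3.61 against 1.60 RPKM (0.54), Gbp4 at 4.50 against 3.41 RPKM (−0.01) and Gbp9 at 5.52 against 4.41 RPKM (−0.07). The family thus ranged from no difference to 2-fold.

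The immunity-related GTPases ranged as widely. Irgm2 stood at 13.5 against 5.14 RPKM (0.88), and Igtp, also known as Irgm3, at 12.1 against 7.99 RPKM (0.17). The annotated spans of Igtp and Irgm2 overlap on the same strand, so reads could be divided between them in a way that the sources used here do not state. Irgm1, which regulates autophagy and the other GTPases of the family, stood at 18.04 against 13.5 RPKM (0.00), and the effector Iigp1 at 26.9 against 24.98 RPKM (−0.29). All 5 GTPases with a promoter window held the response element core, and their differences covered nearly the whole range from 0.00 to 1.07.

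**Figure D3:**
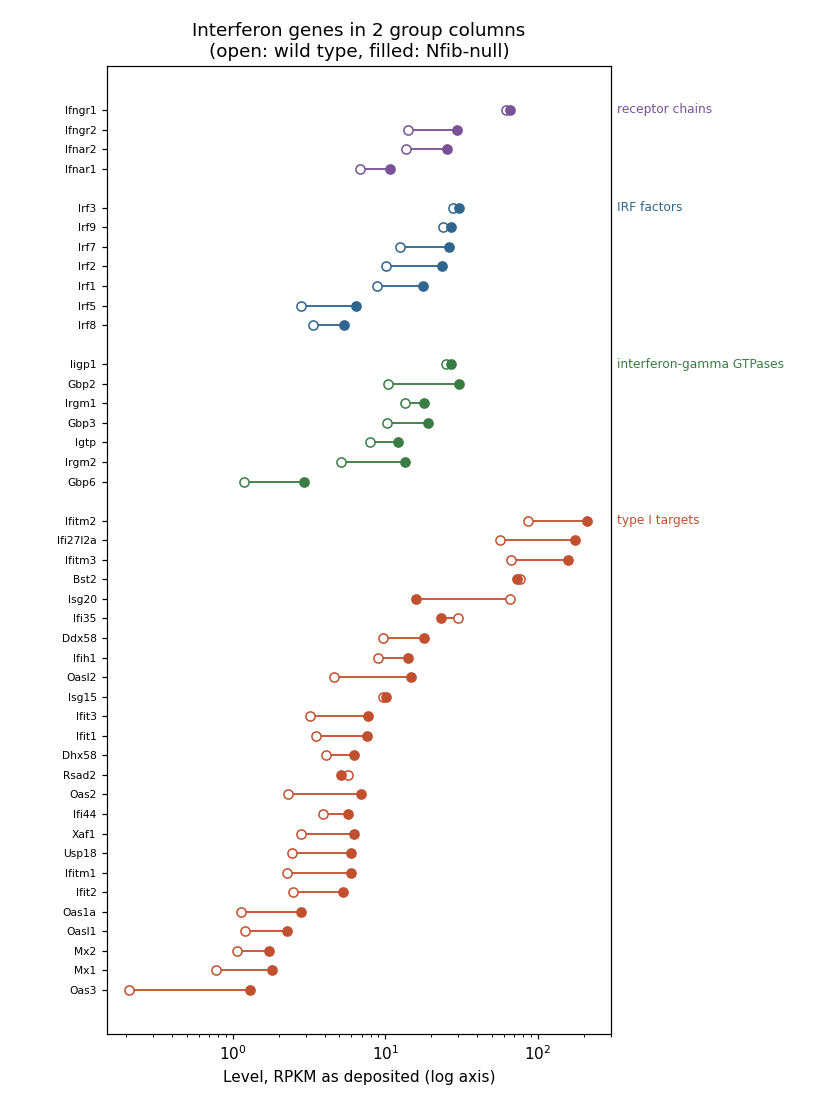
Levels of the 43 genes in RPKM as deposited (log axis), with the wild-type column as open and the Nfib-null column as filled circles, joined by a line and ordered by mean level within each role. Most lines run to the right, where 74.8% of all genes tested were above 0 as deposited. Isg20 runs to the left from 66.1 to 15.9 RPKM and Ifi35 from 30.1 to 23.2 RPKM. Bst2, Isg15, Rsad2, Ifngr1, Irf3, Irf9 and Iigp1 have nearly overlapping circles.

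Isg20 stood apart from all other type I targets. It encodes an exonuclease that degrades single-stranded RNA. Its level was 15.9 RPKM (Nfib-null column) and 66.1 RPKM (wild-type column), a difference of −2.39, which placed it at percentile 0.679 of the 12511 genes tested. It was lower by at least 2-fold under every scaling and pseudocount tried, from −1.99 as deposited to −3.56 against macrophage genes. In the wild-type column Isg20 was among the 5 type I targets of highest level, and in the Nfib-null column its level was below those of Ifi35 and Ddx58 as well. No response element core was found in the 3 promoter windows of Isg20, and a gamma-activated site motif was.

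The membrane restriction factors held the highest levels. The IFITM proteins block fusion of virus and host membranes, and Ifitm2 stood at 210.0 RPKM (Nfib-null column) against 85.7 RPKM (wild-type column) (0.87). Ifitm3 stood at 157 against 66.5 RPKM (0.82) and Ifitm1 at 5.94 against 2.25 RPKM (0.78). The 3 ratios were alike although the levels of Ifitm1 and Ifitm2 differed by far more than the columns did. Bst2, tetherin, which holds budding virus on the cell, went the other way at 73.1 against 76.1 RPKM (−0.46). It was lower by 2-fold against luminal genes (−1.05), as were 19.6% of all genes. Bst2 also marks plasmacytoid dendritic cells, the main makers of type I interferon. Of 8 listed markers of these cells, 5 lay below the minimum and did not share a direction. As deposited, Siglech (0.965 against 0.565 RPKM) and Klk1 lay above their wild-type values, and Ccr9, Cox6a2 and Pacsin1 lay below theirs.

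Ifi27l2a, a small membrane protein gene of the ISG12 family, had the largest difference upwards of the 42 with a pseudocount of 1, at 177 RPKM (Nfib-null column) against 56.6 RPKM (wild-type column) (1.22). It became 0.63 against luminal genes and 0.00 against macrophage genes, where the medians of all genes were −0.51 and −1.05. With a pseudocount of 0.1 it stood behind Oasl2 (1.23 against 1.25). Its relative Ifi27l1, the synonym of Ifi27, stood at 122 against 58.6 RPKM (0.64). The related Ifi27l2b was listed at 0 in the wild type and at 0.103 RPKM in the Nfib-null column.

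The oligoadenylate synthetases sense double-stranded RNA, and each measured member had a ratio in the same direction. Oasl2, a synthetase-like protein, stood at 14.7 RPKM (Nfib-null column) against 4.58 RPKM (wild-type column) (1.13). Oas2 stood at 6.93 against 2.31 RPKM (0.94), which passed 2-fold as deposited (1.26) and with a pseudocount of 0.1 (1.15). Oas1a stood at 2.80 against 1.13 RPKM (0.57) and Oasl1 at 2.28 against 1.197 RPKM (0.32). Against macrophage genes, Oas2, Oas1a and Oasl1 were below 0 and Oasl2 was at 0.04, where the median of all genes was −1.05. Oas3 lay below the minimum at 1.29 against 0.207 RPKM, and its wild-type value rested on about 6.74 reads per kilobase.

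After median-ratio scaling the classical markers of a type I response did not share a direction. Ifit3, Ifit1 and Ifit2, which bind foreign RNA ends and restrain translation, stood at 7.75 against 3.22 RPKM (0.71), 7.55 against 3.51 RPKM (0.58) and 5.28 against 2.49 RPKM (0.53). Usp18, which removes ISG15 from proteins and dampens the type I receptor, stood at 5.92 against 2.46 RPKM (0.68), and its substrate Isg15, a ubiquitin-like modifier, at 10.1 against 9.71 RPKM (−0.32). Rsad2, viperin, which makes a chain-terminating nucleotide, stood at 5.12 against 5.72 RPKM (−0.48). Isg15, with 3 response element cores, and Rsad2, with 1, thus lay on the other side of 0 from Ifit1 and Ifit3, which hold 2 each. The sides depend on the scaling. As deposited Isg15 was at 0.05 and Rsad2 at −0.14. Against macrophage genes all of these genes were below 0, from −0.29 (Usp18) to −1.51 (Rsad2), where the median of all genes was −1.05.

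The remaining type I targets lay within 2-fold in both directions. The dynamin-like GTPases Mx1 and Mx2 stood at 1.799 against 0.776 RPKM (0.43) and 1.72 against 1.06 RPKM (0.17), so both were near the minimum. Xaf1, a promoter of apoptosis, stood at 6.22 against 2.78 RPKM (0.60), and Ifi44 at 5.65 against 3.92 RPKM (0.09). Ifi35 stood at 23.2 against 30.1 RPKM (−0.76), the lowest difference after Isg20. The RNA helicases that recognise viral RNA were Ddx58, or RIG-I, at 17.9 against 9.65 RPKM (0.45), Ifih1, or MDA5, at 14.2 against 8.92 RPKM (0.23) and Dhx58 at 6.23 against 4.08 RPKM (0.17).

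With a pseudocount of 1, type I targets, GTPases and IRF factors did not separate from each other by their medians. These were 0.49 in 24 genes, 0.46 in 7 and 0.55 in 7. The ranges of these groups overlapped, from −2.39 to 1.22, from −0.29 to 1.07 and from −0.27 to 0.75. With a pseudocount of 0.1 the medians were 0.67, 0.49 and 0.59 in the same order, so the order of the groups depended on the pseudocount. The 16 tested genes with a response element core had a median of 0.51 (−0.48 to 1.07), and the 18 with a promoter window and no core had a median of 0.39 (−2.39 to 1.13). In both sets 13 genes were above 0. With 1 value per column, none of these medians was tested against another.

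**Figure D4:**
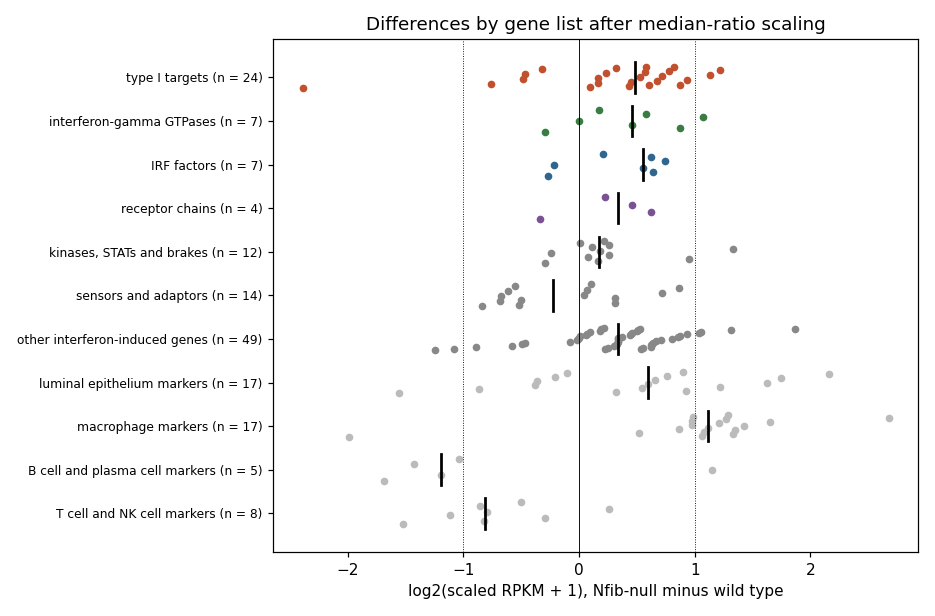
Log2 differences of single genes (points) and their medians (vertical bars) after median-ratio scaling, for the 4 role groups, for other interferon pathway lists (dark grey) and for cell type markers (light grey), with dotted lines at 2-fold. The role groups centre between 0.34 and 0.55, below the macrophage markers at 1.11 and above the sensors and adaptors at −0.23, and Isg20 is the far point on the left.

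The list of sensors and adaptors that act before interferon is made was not higher with the targets. The RNA sensors Ddx58, Ifih1 and Dhx58, all above 0, were counted among the type I targets and not in this list. Of the 14 listed genes 0 passed 2-fold after median-ratio scaling, beside 6.95% of all genes higher and 5.97% lower. Of the 14, 7 were above 0 and 7 below, where 50% of all genes were above 0. Their median was −0.23, and as deposited it was 0.07 against 0.35 for all genes. Mavs, the mitochondrial adaptor of RIG-I and MDA5, stood at 17.4 RPKM (Nfib-null column) against 24.2 RPKM (wild-type column) (−0.84). The endosomal RNA receptor Tlr3 stood at 13.2 against 16.4 RPKM (−0.68), the DNA-sensing adaptor Tmem173, or STING, at 18.2 against 21.4 RPKM (−0.62), and the kinase Tbk1 at 16.7 against 18.5 RPKM (−0.52). Tlr7 and Tlr8, receptors of myeloid cells, stood at 2.39 against 0.601 RPKM (0.86) and 1.93 against 0.541 RPKM (0.72).

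Among 49 other interferon-induced genes tested, 4 were higher and 2 lower, beside 6.95% and 5.97% of all genes, and their median was 0.34. The higher ones were Ifi205 (30.03 against 5.57 RPKM, 1.87) and Ifi204 (12.6 against 3.31 RPKM, 1.31) of the DNA-binding p200 family, the secreted glycoprotein gene Lgals3bp (98.9 against 35.3 RPKM, 1.06) and Nlrc5, an activator of class I antigen presentation genes (8.47 against 2.66 RPKM, 1.04). The lower ones were Cmpk2, a mitochondrial nucleotide kinase, at 20.4 RPKM in the Nfib-null column against 37.4 RPKM in the wild type (−1.24), and Eif2ak2, the RNA-activated kinase PKR that stops translation, at 11.6 against 19.5 RPKM (−1.08). With values as deposited 12 of the 49 were higher and 0 lower, beside 14.4% and 2.95% of all genes.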

How the data were processed

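The authors deposited 1 table of RPKM values per gene, with the unit given per the file headers and 1 column for each genotype. The submitters' processing notes list CASAVA, TopHat and mm9 with no version or role, per the labels. How genes were counted, on which annotation and whether by strand is not given in the sources used here. In NfibFF-WC, 84.4% of the entries with 10 decimals had an ending in 3s, or in 6s with the last digit rounded up, as means of 3 values have. In Nfib-WT, 67 entries had 10 decimals and 0% of those had such an ending. Each column was read as the authors' group mean, over 3 and 2 libraries, with no SD. For Nfib-WT this is an assumption that the decimals do not show directly.

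The members and lists were chosen with earlier results of these data known. A gene was kept if its mean, weighted by libraries, was 1 RPKM or more (12511 of 22609). Columns were divided by 1.153 (Nfib-null) and 0.867 (wild type), and a pseudocount of 1 was added before log2. Every listed gene was given a value, and some pathway genes outside the list are not reported here. Pathway genes outside the list were named where they passed 2-fold or act directly at the receptors. Others (further Gbp genes, Ifi27l1, Ifi27l2b, Ifng, Ifne, Stat3, Siglech, sensors) were chosen after their values were seen. Depth was estimated from the smallest steps between low values and transcript lengths of GENCODE M21, with as many steps as libraries, and is approximate. By the same annotation, opposite-strand genes overlap Irf3, Irf5, Irf7 and others, and Rnf31 overlaps Irf9 on its own strand. Such pairs and near-identical relatives (IFIT, OAS, IFITM, GBP and IRG genes) may share reads. Scripts ran in Python 3.11.15 with pandas 2.3.3 and were checked on simulated columns. Other scalings, pseudocounts, minimums and fold limits were tried as alternatives.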

Additional observations from a re-analysis of the deposited data

How the results depend on the processing

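No paired analysis was possible because the table holds 1 value per genotype, and leaving out single replicates was not run for the same reason. The count of higher genes, 3 of 42, was 5 with quantile normalization (6.75% of all genes), 6 with equal sums (9.38%), 12 as deposited (14.4%), 0 with scaling to luminal (2.28%) or macrophage genes (0.687%), 1 with a pseudocount of 5 (2.77%), 15 at a fold limit of 1.5 (17.1%) and 0 at a limit of 4 (0.727%). The count of lower genes, 1, was 3 with scaling to luminal genes (19.6%), 10 with scaling to macrophage genes (53.3%) and 2 at a limit of 1.5 (14.7%). With scaling to luminal genes the medians were −0.024 (all listed genes), −0.10 (GTPases) and −0.21 (receptor chains). With scaling to macrophage genes they were −0.54 (all), −0.44 (type I targets), −0.69 (GTPases), −0.58 (IRF factors) and −0.79 (receptor chains), and Gbp2 turned to −0.091. These scalings shift every gene by construction, the median of all genes to −0.51 and −1.05. With no pseudocount, a choice made after seeing the data, 4 genes were higher (11.1% of all genes) and 1 lower (7.77%). The response element core was found in 14 genes in place of 17 when the part before the start alone was searched. Differences of genes under about 2 RPKM are limited by depth and by the pseudocount.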
